A study of Mus musculus with 80 samples.

Results

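The tissue inhibitors of metalloproteinases (Timp1, Timp2, Timp3 and Timp4) and 4 of the matrix metalloproteinases they bind (Mmp2, Mmp3, Mmp12 and Mmp14) were followed in mouse lung after styrene inhalation. The values came from a table of log2 array signals. For each gene, the probe set annotated with that symbol alone was chosen by the highest mean signal over all 80 arrays, so that mean supports nothing below. Of the 8 genes listed, 7 had such a probe set, out of 17097 genes that did. Timp4, an inhibitor known mainly from heart and fat, had none in the annotation used and was not analysed here. All 7 passed the filter on low signal, which asked for a value above the median of the whole table (4.28) on at least 5 of 80 arrays and left 11406 genes for testing. Timp1, Timp2, Timp3, Mmp2, Mmp3 and Mmp14 were above it on all 80 arrays, and Mmp12 on 55 of 80.

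Whole lungs were taken from adult male Taconic mice on the morning after 1 exposure of 6 h to styrene vapour or to air alone, with 5 labelled biological replicates in each of the 16 groups. The CYP2F1 humanized mice (TG), the CYP2F2 knockout mice (KO) and the wild type (WT) were C57Bl/6, and the CD-1 mice were outbred, and each strain breathed 10, 40 and 120 ppm styrene or air (0 ppm). CYP2F2 is the mouse lung cytochrome P450 that oxidizes styrene in the club cells of the airways, and CYP2F1 is the human counterpart. The labels do not name the promoter that drives the human gene, nor say whether an array holds 1 mouse or several. The probe set of Cyp2f2 read 11.48 to 12.00 over the 20 TG arrays and 11.51 to 11.89 over the 20 KO arrays. It read 12.50 to 13.14 over the 20 CD-1 arrays and 12.04 to 13.27 over the 20 WT arrays. The position of that probe set relative to the deletion was not checked, so these values do not check the labels. The number of arrays limits the precision of every value. The median over all probe sets averaged 4.10 on TG arrays, 4.16 on KO arrays, 4.27 on CD-1 arrays and 4.57 on WT arrays, so tests of levels between strains were made after the array median was subtracted, and the values given per array are as deposited unless stated.

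Matrix metalloproteinases are zinc proteases that cut collagens, elastin, proteoglycans and cell surface proteins, and TIMPs are small secreted proteins that block their active site. In lung, fibroblasts, smooth muscle, epithelium and macrophages make different members of both families. TIMP1 is known as a gene induced by interleukin 6 type cytokines and growth factors, while TIMP2 and TIMP3 are made more evenly, and TIMP2 together with MMP14 takes part in activating pro-MMP2 at the cell surface.

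The stretch just before the gene start is shown for Timp1, Mmp3 and Mmp14, the 3 members that were higher than in air at every styrene dose in WT lungs. The RefSeq promoter table of GRCm38.p6 held 7 of the 8 members. Timp1 lies on chromosome X at chrX:20870166-20874737, Mmp3 at chr9:7445822-7455975 and Mmp14 at chr14:54431598-54442456. All 3 are read from the plus strand, and the printed 250 bases before the start are chrX:20869916-20870165, chr9:7445572-7445821 and chr14:54431348-54431597. Capitals mark matches to 2 elements known from studies of Timp and Mmp promoters, searched on both strands and with no overlap between them: the AP-1 site TGANTCA and the ETS (PEA3) core AGGAAG. These motifs were chosen with the array results known.
Timp1: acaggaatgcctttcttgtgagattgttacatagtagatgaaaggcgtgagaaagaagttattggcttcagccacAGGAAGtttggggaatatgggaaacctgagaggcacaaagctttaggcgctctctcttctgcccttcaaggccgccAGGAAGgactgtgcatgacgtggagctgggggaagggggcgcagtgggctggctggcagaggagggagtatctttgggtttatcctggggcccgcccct
Mmp3: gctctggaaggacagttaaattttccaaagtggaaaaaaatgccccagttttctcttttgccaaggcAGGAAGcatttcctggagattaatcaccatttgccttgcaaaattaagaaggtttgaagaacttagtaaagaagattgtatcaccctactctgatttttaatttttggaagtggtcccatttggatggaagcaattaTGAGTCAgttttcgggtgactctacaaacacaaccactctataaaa
Mmp14: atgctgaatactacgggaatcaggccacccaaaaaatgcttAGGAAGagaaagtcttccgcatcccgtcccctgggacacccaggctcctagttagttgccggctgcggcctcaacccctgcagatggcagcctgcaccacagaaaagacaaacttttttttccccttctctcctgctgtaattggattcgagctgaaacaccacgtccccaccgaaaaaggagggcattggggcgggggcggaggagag
Timp1 held 2 ETS cores, at 175 to 170 and 99 to 94 bases before the start, and no AP-1 match. Only the exact pattern TGANTCA was searched in this window, so a variant AP-1 site would be missed. Mmp3 held 1 AP-1 match at 46 to 40 bases and 1 ETS core at 183 to 178 bases before the start. Mmp14 held 1 ETS core, 209 to 204 bases before the start. Over all 32851 mouse promoters of the same length, 6.75% held an AP-1 match and 29.5% an ETS core. Mmp12 has 2 annotated starts, with an ETS core 87 to 82 bases before the one and an AP-1 match 44 to 38 bases before the other. Timp3 and Timp4 held 1 ETS core each, and the window of Timp2 held neither. A STAT element, TTCNNNGAA, and an interferon response element, GAAA repeated after 2 bases, were searched too and had no match in any of these windows, against 7.02% and 2.98% of all promoters.

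In WT lungs, Timp1, Mmp3 and Mmp14 rose after styrene at all 3 doses, by up to 3.41, 1.21 and 0.52 on the log2 scale. Mmp12 rose and Timp2 fell at 10 ppm by the same test. No change of Timp3 or Mmp2 passed at any dose. Of the 7 genes, 4 rose and 1 fell at 10 ppm, where 7.67% of all tested genes were called higher and 4.9% lower. At 40 ppm 3 rose and 0 fell, beside 13.7% higher and 12.4% lower over all genes, and at 120 ppm 3 rose and 0 fell, beside 14.3% and 9.65%. The median change of the 7 was 0.27, 0.48 and 0.49 at 10, 40 and 120 ppm, beside 0.00, -0.01 and 0.01 over all tested genes. Calls were made with limma at a Benjamini-Hochberg adjusted p under 0.05 over the 11406 genes of each comparison. The choice of these genes drew on earlier results that already showed Timp1 high in WT lungs, so its p values are given as a description.

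Timp1, the inducible inhibitor, read 7.03, 6.50, 6.23, 6.49 and 6.50 in WT lungs in air, and 10.64, 8.70, 8.89, 8.73 and 10.51 at 10 ppm. It read 10.29, 10.25, 9.87, 9.79 and 9.60 at 40 ppm, and 10.13, 9.13, 9.46, 9.36 and 9.09 at 120 ppm. Every exposed array lay above every air array, with a gap between the groups of 1.67, 2.57 and 2.05 log2 units at the 3 doses. At 10 ppm replicates 1 and 5 stood well above the other 3 arrays. The change from air was 2.95 ± 0.33 at 10 ppm, 3.41 ± 0.33 at 40 ppm and 2.88 ± 0.33 at 120 ppm (SE, n = 5 arrays per group), with limma adjusted p = 5.02e-06, 8.8e-07 and 6.45e-06. On the linear scale these are 7.71-fold, 10.6-fold and 7.38-fold. Counted from the highest change, Timp1 was 11th, 6th and 9th of the 11406 genes. At 10 ppm the change was 2.66 without replicate 1 and 2.69 without replicate 5.

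**Figure D1:**
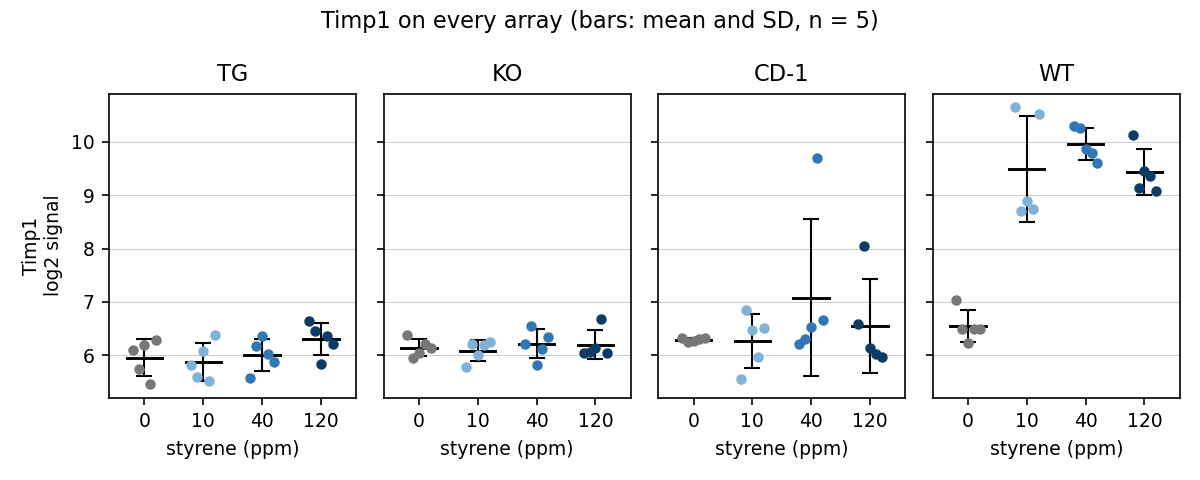
Timp1 log2 signal (vertical axis) of each array against styrene dose in ppm, with TG, KO, CD-1 and WT in separate panels. Bars are the mean and SD of 5 arrays. The 15 exposed WT arrays lie between 8.70 and 10.64, above all 5 WT air arrays, and 1 CD-1 array at 40 ppm reads 9.69.

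Timp2, the constitutive inhibitor that also helps activate pro-MMP2, read 11.22, 11.09, 11.18, 11.18 and 11.20 in WT lungs in air and 10.75, 11.06, 10.94, 11.00 and 10.89 at 10 ppm. The 10 ppm arrays lay just under the air arrays, with a gap of 0.0267. It averaged 11.17 ± 0.05 in air, 10.93 ± 0.12 at 10 ppm, 11.01 ± 0.08 at 40 ppm and 11.02 ± 0.13 at 120 ppm (SD, n = 5 each). The change was -0.24 ± 0.07, -0.17 ± 0.07 and -0.15 ± 0.07 at 10, 40 and 120 ppm (SE; limma adjusted p = 0.0185, 0.0661 and 0.0976), so the first passed. At 40 ppm it also passed with the array median subtracted (0.0411), with quantile normalization (0.0477) and with the mean over probe sets (0.0411), and at 120 ppm with the array median subtracted (0.0323). Without WT 10 ppm replicate 1 the first had an adjusted p of 0.0615. Timp2 had 5 probe sets, and they did not all move alike. Of the other 4, 1 was called lower at 10 ppm, 2 at 40 ppm and 2 at 120 ppm, all lower. The probe set 1450040_PM_at changed by -0.26, -0.24 and -0.23 and was called at each dose. In contrast, 1460287_PM_at, with the second highest mean (10.3), changed by -0.09, -0.01 and -0.02 and was never called.

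**Figure D2:**
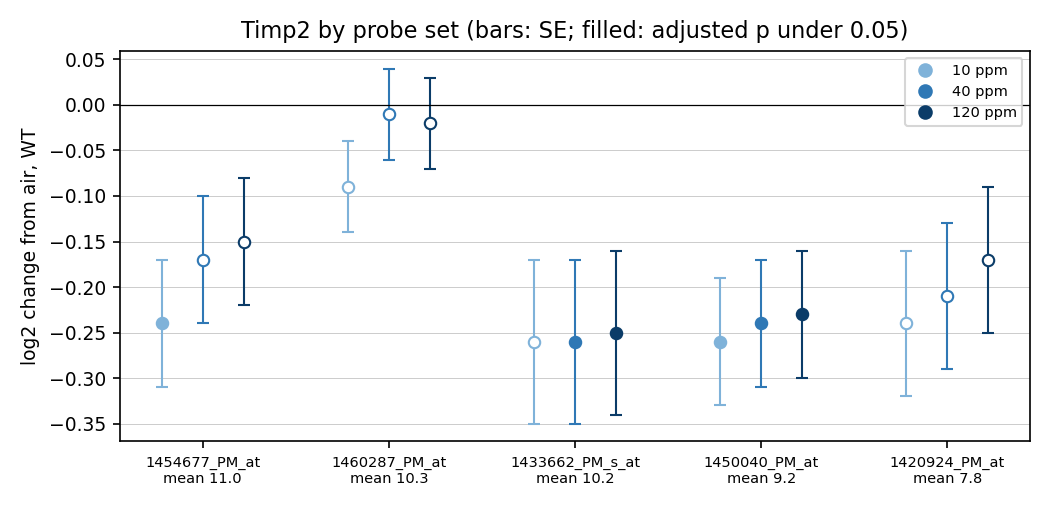
Change of Timp2 from air in WT lungs (log2, vertical axis) for each of its 5 probe sets, ordered by mean signal over 80 arrays, at 10, 40 and 120 ppm. Bars are the SE and filled points passed an adjusted p of 0.05. The first probe set on the left is the one used for the gene, and the second stays within 0.09 of 0.

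Timp3, the inhibitor bound to the extracellular matrix, had one of the highest signals, with means of 11.23 in air, 11.07 at 10 ppm, 11.31 at 40 ppm and 11.21 at 120 ppm in WT lungs. The 40 ppm arrays spread most (SD 0.31). Its changes of -0.16, 0.08 and -0.02 had adjusted p values of 0.348 or more, and none of its other 3 probe sets was called at any dose.

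Mmp3 (stromelysin 1), a protease with a broad range of matrix substrates, read 8.05, 7.96, 7.99, 8.12 and 8.16 in WT lungs in air and 9.28, 8.13, 8.85, 8.66 and 9.49 at 10 ppm. It read 9.18, 9.44, 9.48, 9.02 and 9.19 at 40 ppm, and 9.26, 8.75, 8.69, 9.08 and 9.02 at 120 ppm. At 40 and 120 ppm all exposed arrays lay above the air arrays, by at least 0.866 and 0.536, while at 10 ppm replicate 2 fell within the air range. Changes of 0.83 ± 0.18, 1.21 ± 0.18 and 0.90 ± 0.18 at 10, 40 and 120 ppm passed with limma adjusted p = 0.00489, 9.86e-05 and 0.00147. The linear folds were 1.77, 2.31 and 1.87. In 1 fit of all 80 arrays the calls at 10 and 120 ppm were lost (0.206 and 0.109). The 2 arrays with the highest Mmp3 at 10 ppm, replicates 1 and 5, were also those with the highest Timp1. They had the lowest Mmp2 (8.28 and 8.05, others 8.79 to 9.05) and the lowest Timp2 of the group. Their summed fibroblast markers were the lowest (12.42 and 12.33, others 12.49 to 12.73) and their summed neutrophil markers the highest (11.27 and 11.38, others 10.37 to 11.18). Cyp2f2 was also the lowest on both (12.75 each, others 12.84 to 12.87). The other sums taken per array did not set the pair apart. Monocyte sums were 10.30 and 10.42 (others 10.38 to 10.66) and smooth muscle sums 11.50 and 12.06 (others 11.44 to 11.65). Mesothelial sums were 9.61 and 9.69 (others 9.50 to 10.20) and alveolar macrophage sums 12.52 and 12.57 (others 12.27 to 12.59). The part of these markers in the result was not tested.

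Mmp14 (MT1-MMP), a membrane-bound protease that activates pro-MMP2, read 7.48, 7.45, 7.68, 7.76 and 7.86 in WT lungs in air. Its values were 7.91, 8.0, 7.97, 7.85 and 7.87 at 10 ppm. They were 8.02, 8.29, 8.18, 8.13 and 8.01 at 40 ppm, and 8.08, 8.26, 8.16, 8.22 and 8.11 at 120 ppm. The 40 and 120 ppm arrays lay above all air arrays, and those at 10 ppm met the upper end of the air range. The rise was small and tight: 0.27 ± 0.08, 0.48 ± 0.08 and 0.52 ± 0.08, with limma adjusted p = 0.0205, 0.000155 and 7.66e-05. The 10 ppm call was lost without WT air replicate 1 or 2 (highest adjusted p 0.0607), and in 1 fit of all 80 arrays (0.271). A second, dimmer Mmp14 probe set changed by 0.25, 0.61 and 0.50 at the 3 doses and was called at 40 and 120 ppm (adjusted p at 10 ppm 0.085).

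Mmp12, the elastase of macrophages, had the lowest signal of the 7. In WT lungs it read 5.16, 4.97, 5.56, 5.23 and 5.12 in air, 7.25, 5.65, 5.30, 5.64 and 6.38 at 10 ppm, 6.38, 5.66, 5.64, 6.18 and 5.55 at 40 ppm, and 6.01, 5.29, 5.55, 5.95 and 5.67 at 120 ppm. The groups overlapped with air at each dose, and replicates 1 and 5 were again the highest at 10 ppm. The change of 0.84 ± 0.27 at 10 ppm was called (limma adjusted p = 0.0492), and those of 0.67 ± 0.27 at 40 ppm (0.0741) and 0.49 ± 0.27 at 120 ppm (0.205) were not. The 10 ppm call rested on few arrays: it was 0.54 with an adjusted p of 0.125 without replicate 1, and 0.75 with 0.127 without replicate 5. It was lost in 16 of the 20 fits that left out 1 WT array, and also with quantile normalization (0.0544), array weights (0.0603) or no signal filter (0.0656).

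Mmp2 (gelatinase A), made by fibroblasts and activated by Mmp14, averaged 8.86 ± 0.09 in WT lungs in air, 8.59 ± 0.41 at 10 ppm, 8.49 ± 0.26 at 40 ppm and 8.72 ± 0.27 at 120 ppm (SD, n = 5 each). Its changes of -0.26, -0.37 and -0.14 had limma adjusted p values of 0.319, 0.109 and 0.569. Exposed arrays reached down to 8.05, below the lowest air array (8.75), and up to 9.05, above the highest (8.99).

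Of the 7 genes, Timp1 lay apart from air at all 3 doses in WT lungs, Timp2 at 10 and 40 ppm, and Mmp3 and Mmp14 at 40 and 120 ppm. Over all tested genes, groups failed to overlap for 10.2%, 18.3% and 19.9% at the 3 doses. The doses were also compared with each other. For 40 against 10 ppm, 0 of the 7 genes were called by limma (lowest adjusted p 0.193), beside 0.947% of all genes. For 120 against 10 ppm, 0 of 7 were called (0.135), beside 0.903%, and for 120 against 40 ppm 0 of 7 (0.718), beside 0%. At an unadjusted p under 0.05, 1748, 1533 and 839 of all genes passed these 3 comparisons.

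**Figure D3:**
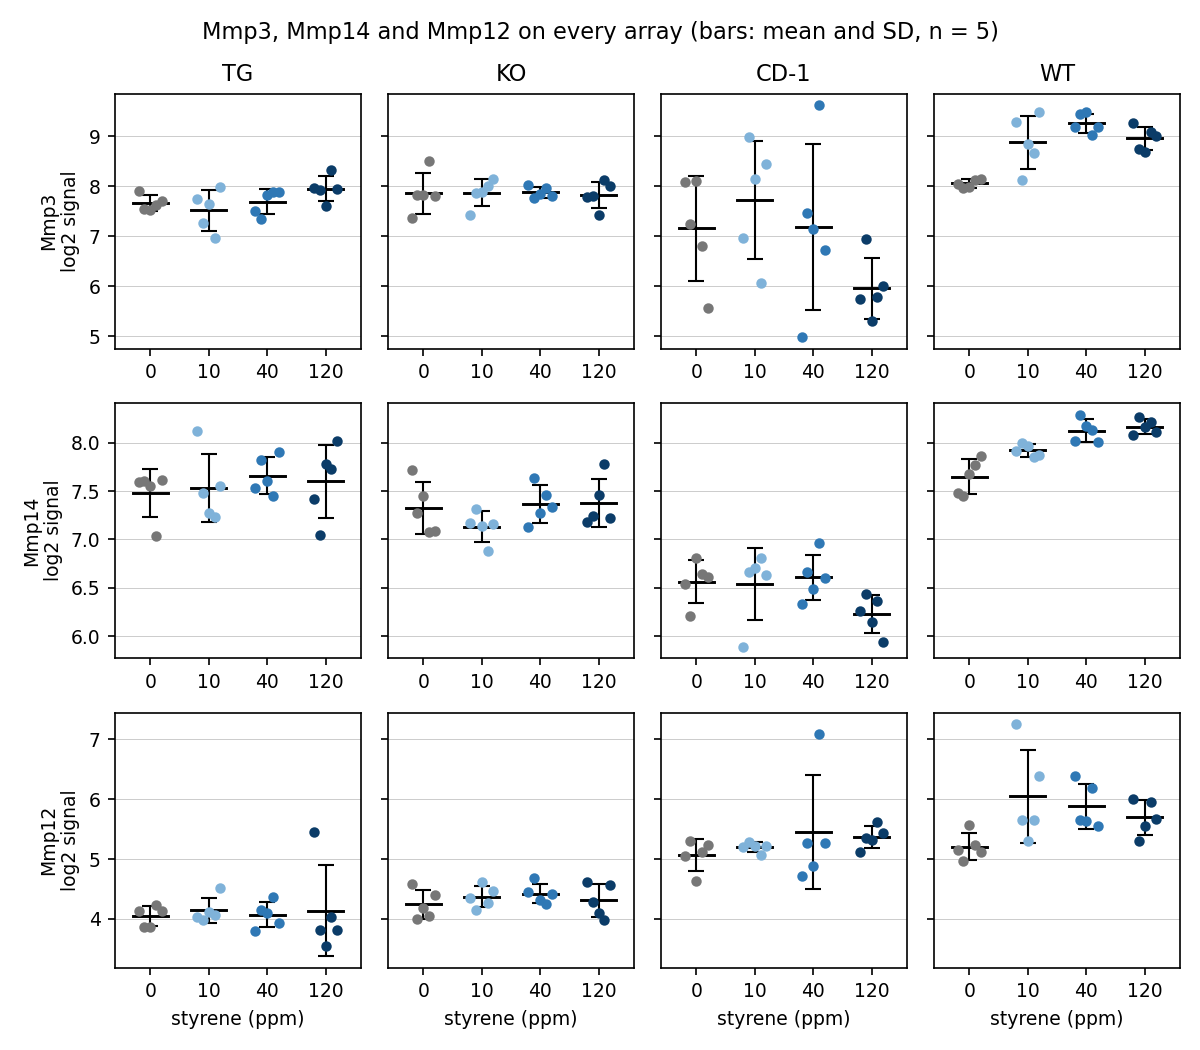
Log2 signal of Mmp3, Mmp14 and Mmp12 (rows, each with its own vertical axis) on every array against styrene dose in ppm in TG, KO, CD-1 and WT. Bars are the mean and SD of 5 arrays. Mmp3 and Mmp14 of WT at 40 and 120 ppm lie above all WT air arrays, Mmp3 in CD-1 spreads from 4.98 to 9.62, and Mmp12 has 1 CD-1 array at 7.09 and 1 TG array at 5.46.

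In TG, KO and CD-1 lungs none of the 7 genes passed at any dose. In TG lungs, 0 of 7 were called at 10, 40 and 120 ppm, beside 0%, 0% and 0.0701% of all genes. In KO lungs it was 0 of 7, beside 0% at each dose. In CD-1 lungs it was again 0 of 7, beside 0%, 0.00877% and 0.0175%. At an unadjusted p under 0.05, limma passed 1579, 867 and 1439 of all genes in TG, 649, 564 and 596 in KO, and 272, 442 and 597 in CD-1 at 10, 40 and 120 ppm. The 7 genes' changes from air ran from -0.53 to 0.34 in TG (lowest adjusted p 0.463), from -0.19 to 0.32 in KO (0.944) and from -1.20 to 0.79 in CD-1 (0.792). None of the 7 genes lay apart from air at any dose in these strains. Over all tested genes, groups failed to overlap at 10, 40 and 120 ppm for 2.24%, 1.34% and 1.94% in TG. The shares were 1.24%, 0.85% and 0.763% for KO lungs and 0.377%, 0.666% and 1.27% for CD-1 lungs.

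Timp1 read 6.64, 6.45, 5.84, 6.36 and 6.21 in TG lungs at 120 ppm, against 6.10, 5.75, 6.19, 5.46 and 6.28 in TG lungs in air. Those ranges overlapped, and the change was 0.34 with a 95% interval of -0.05 to 0.73. In KO lungs Timp1 read 6.21, 6.56, 5.83, 6.13 and 6.35 at 40 ppm, against 6.38, 5.96, 6.05, 6.22 and 6.14 in air. Its change there was 0.07, with an interval of -0.22 to 0.35, and over all 20 KO arrays it ran from 5.78 to 6.69. Mmp3 changed by -0.14 to 0.29 in TG lungs and by -0.03 to 0.02 in KO lungs. Mmp14 changed by 0.05 to 0.18 in TG lungs and by -0.19 to 0.05 in KO lungs. Mmp2 changed by -0.53 to -0.37 in TG lungs (lowest limma adjusted p 0.484) and by 0.19 to 0.32 in KO lungs. Mmp12 signal was low in both, around the filter level of 4.28, at 3.55 to 5.46 in TG and 3.98 to 4.68 in KO.

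CD-1 lungs were uneven between arrays of 1 dose. Timp1 read 6.22, 6.31, 6.53, 9.69 and 6.67 at 40 ppm, against 6.32, 6.25, 6.27, 6.31 and 6.32 in CD-1 lungs in air. Replicate 4 alone lay far above the air arrays. At 120 ppm replicate 2 read 8.06 and the other 4 arrays 5.96 to 6.59. The Timp1 change was 0.79 ± 0.52 at 40 ppm and 0.14 without that replicate 4, and 0.26 ± 0.52 at 120 ppm and -0.12 without that replicate 2.

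Replicate 4 of CD-1 at 40 ppm was also the highest of its group in Mmp3, which read 4.98, 7.47, 7.15, 9.62 and 6.73, in Mmp12 (7.09, others 4.71 to 5.27) and in Mmp14 (6.96). Without it the 40 ppm changes were -0.58 for Mmp3, against 0.03 with it, and -0.03 for Mmp12, against 0.38 with it. On this array the summed smooth muscle, mesothelial and monocyte markers were the highest of the group (11.67, 9.71 and 10.32), on the log2 scale. The summed neutrophil markers lay inside the range of the group (11.01, others 10.34 to 11.80). The summed alveolar macrophage and fibroblast markers were the lowest (12.24 and 12.50). Cyp2f2, which marks club cells, was the lowest of the group there too (12.50, others 12.85 to 12.96). Replicate 2 of CD-1 at 120 ppm was also the highest of its group in Mmp3 (6.95, others 5.31 to 6.01) and Mmp14 (6.43). It was the lowest in Cyp2f2 (12.63, others 12.92 to 13.13) and Mmp2 (8.28). Its summed monocyte markers were again the highest (10.16), while its summed neutrophil markers were the lowest (10.87, others 11.24 to 11.68). Unlike the 40 ppm array, it had Mmp12 inside the range of the others (5.35, others 5.12 to 5.61) and the highest alveolar macrophage sum (12.48). Its fibroblast (12.67), smooth muscle (11.20) and mesothelial (8.76) sums lay inside the range of its group. The part of the cell markers in these values was not tested.

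Mmp3 spread more in CD-1 than in any other strain here, from 4.98 to 9.62 over 20 arrays, against 6.96 to 8.33 in TG, 7.36 to 8.50 in KO and 7.96 to 9.49 in WT. In CD-1 air it already read 8.08, 7.25, 8.11, 6.81 and 5.57. At 120 ppm it read 5.75, 6.95, 5.31, 5.79 and 6.01, which overlaps the air range, and its change of -1.20 had a 95% interval of -2.64 to 0.24. Mmp14 read 6.26, 6.43, 6.15, 6.36 and 5.94 in CD-1 at 120 ppm, against 6.54, 6.21, 6.81, 6.64 and 6.61 in air. The change was -0.33 ± 0.16 and did not pass. Between exposed CD-1 doses, 0 of 7 genes were called by limma for 40 against 10 ppm, 120 against 10 ppm and 120 against 40 ppm (lowest adjusted p 1.0, 0.724 and 0.93), beside 0% of all genes in each. At an unadjusted p under 0.05, 461, 668 and 555 of all genes passed.

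**Figure D4:**
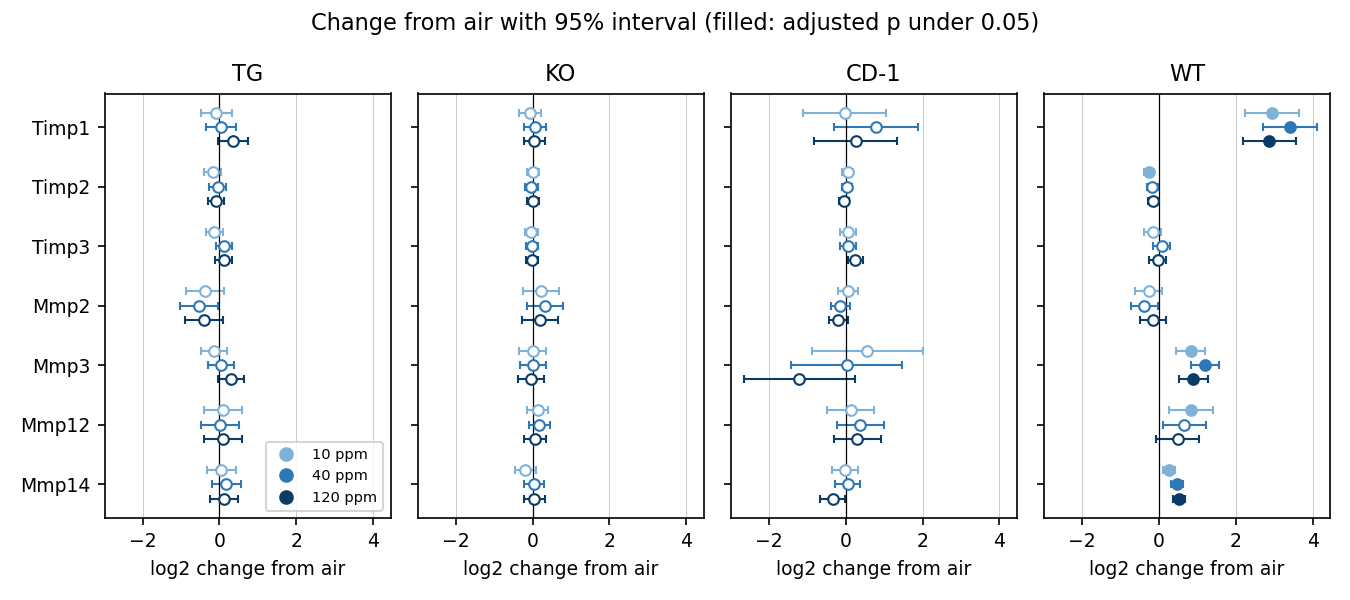
Change from air (log2, horizontal axis) with its 95% interval for 7 genes at 10, 40 and 120 ppm in TG, KO, CD-1 and WT. Filled points passed an adjusted p of 0.05. Filled points occur in the WT panel alone, and the intervals of Timp1 and Mmp3 are wide in CD-1.

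The difference in response between strains was tested directly, as the change from air in the one strain minus that in the other on their 40 arrays. The strains that share WT as their partner share its arrays, so these comparisons are not independent of each other. Timp1 responded less than in WT in all of TG, KO and CD-1 and at all doses. In TG minus WT, 2, 2 and 1 of the 7 genes were lower at 10, 40 and 120 ppm, beside 2.65%, 3.78% and 3.87% of all genes. In KO minus WT, 2, 2 and 3 were lower, beside 4.48%, 7.11% and 7.05%, and in CD-1 minus WT 1, 1 and 2, beside 1.53%, 0.789% and 2.69%. None was higher in any of these comparisons. Of all 11406 genes, 327, 726 and 671 were higher in TG minus WT at 10, 40 and 120 ppm. The counts were 355, 779 and 501 in KO minus WT and 42, 94 and 191 in CD-1 minus WT. Beside such counts, the absence of a higher member among 7 says nothing particular about these genes.

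For Timp1 the TG minus WT difference was -3.02 ± 0.40, -3.36 ± 0.40 and -2.54 ± 0.40 at 10, 40 and 120 ppm (SE; limma adjusted p = 1.84e-06, 2.05e-07 and 3.35e-05). The KO minus WT difference was -3.01 ± 0.37, -3.34 ± 0.37 and -2.83 ± 0.37 (3.96e-07, 5.79e-08 and 1.14e-06). For CD-1 minus WT it was -2.97 ± 0.64, -2.62 ± 0.64 and -2.63 ± 0.64 (0.00514, 0.0311 and 0.015). These differences are close to the whole WT response in size. The CD-1 minus WT difference at 40 ppm was -3.27 (adjusted p = 0.000118) without CD-1 40 ppm replicate 4, while leaving out each of 6 other arrays moved its adjusted p to as much as 0.0627. Those were replicates 1, 2, 3 and 5 of CD-1 at 40 ppm, replicate 3 of WT in air and replicate 2 of WT at 40 ppm.

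Mmp3 responded less than in WT in TG by -0.97 ± 0.25 at 10 ppm and -1.18 ± 0.25 at 40 ppm (limma adjusted p = 0.0154 and 0.00175), while -0.61 at 120 ppm did not pass (0.12). In KO minus WT it differed by -0.82 ± 0.25, -1.19 ± 0.25 and -0.94 ± 0.25 (0.0398, 0.00137 and 0.0127). In CD-1 minus WT, -2.10 ± 0.74 at 120 ppm did not pass (0.097), but it did without replicate 5 of CD-1 in air or replicate 4 at 40 ppm (lowest adjusted p 0.0398). Mmp14 differed in KO minus WT at 120 ppm by -0.47 ± 0.15 (0.0445) and in CD-1 minus WT at 120 ppm by -0.85 ± 0.18 (0.00468). The second Mmp14 probe set was called in CD-1 minus WT at 120 ppm as well (-0.90, 0.00145). In KO minus WT it was called at 40 ppm (-0.48, 0.0167) and not at 120 ppm (-0.29, 0.178), and in TG minus WT at 40 ppm (-0.65, 0.0128) and 120 ppm (-0.61, 0.02). The KO minus WT call for Mmp14 was lost in 13 of 40 fits that left out 1 array, and that for Mmp3 at 10 ppm in 11 of 40. The same Mmp14 call was lost with the array median subtracted (limma adjusted p = 0.0615) and with quantile normalization (0.0626). It was also lost with no signal filter (0.0598) and with the mean over probe sets (0.0569). In 1 fit of all 80 arrays no Mmp3 difference of TG or KO from WT passed (lowest adjusted p 0.185), nor did Mmp14 in KO minus WT (0.174), while Mmp3 in CD-1 minus WT at 120 ppm did (0.0137).

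Between TG and KO, 0 of the 7 genes differed in response at 10, 40 or 120 ppm by limma (lowest adjusted p 0.58, 0.566 and 0.548), beside 0.0175%, 0% and 0% of all genes. The differences ran from -0.58 to 0.24, from -0.85 to 0.14 and from -0.60 to 0.32, with Mmp2 the lowest at each dose. A missed threshold does not show that the human CYP2F1 gene left these genes alone.

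In air, the strains differed in the level of several members. Values here are log2 signal less the array median of the tested genes, and strain and any processing batch cannot be told apart. Timp1 averaged -0.91 ± 0.24 in TG, -0.83 ± 0.16 in KO, -0.81 ± 0.05 in CD-1 and -0.80 ± 0.30 in WT (SD, n = 5 each), and no pair tested differed by more than 0.11 or was called. On the values as deposited it was called lower than in WT, by -0.59 in TG (limma adjusted p = 0.00095) and -0.40 in KO (0.0171). In TG against WT, 3 of the 7 genes were called higher and 1 lower, beside 18.9% and 16.3% of all genes. In KO against WT 2 were lower, beside 6.29%, in CD-1 against WT 1 was lower, beside 15.1%, and in TG against KO 3 were higher, beside 13.4%.

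Mmp12 was lower than in WT both in TG and in KO. Relative to the array median it read -2.78, -3.07, -3.04, -2.38 and -2.83 in TG and -2.40, -2.98, -2.81, -2.94 and -2.56 in KO, against -2.18, -2.40, -1.78, -2.13 and -2.22 in WT. The differences from WT were -0.68 ± 0.15 in TG (limma adjusted p = 0.00168) and -0.59 ± 0.15 in KO (0.0138). The ranges met at the edges, at -2.38 in TG and -2.40 in KO against -2.40 in WT. The signal was low here, and whether the array floor bears on the size of these differences was not tested.

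Mmp2 was lower in KO, at 1.46, 0.74, 0.79, 0.93 and 0.74, against 1.54, 1.62, 1.53, 1.39 and 1.45 in WT. The difference was -0.58 ± 0.13 (limma adjusted p = 0.00762), with KO replicate 1 inside the WT range. In TG against KO it was 0.68 ± 0.13 higher (0.00112). Mmp14 was lower in CD-1, at -0.54, -0.93, -0.30, -0.45 and -0.50, against 0.14, 0.08, 0.34, 0.40 and 0.52 in WT. Those ranges were apart, and the difference was -0.84 ± 0.12 (2.63e-05).

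Timp2 was 0.52 ± 0.09 and Timp3 0.58 ± 0.11 higher in TG than in WT (limma adjusted p = 0.000174 and 0.000372), and 0.45 ± 0.09 and 0.34 ± 0.11 higher in TG than in KO (0.00111 and 0.0238). For these 2 genes the call depends on the probe set and on the scale. Another Timp3 probe set, 1419088_PM_at, differed by -0.43 in TG against WT (0.000512), and the Timp2 probe set 1420924_PM_at by -0.44 (0.0103), both lower in TG. On the values as deposited the TG minus WT differences were 0.04 for Timp2 and 0.09 for Timp3, neither called. Mmp14 in TG against WT was 0.32 ± 0.12 (0.0488), a call lost in 8 of 10 fits that left out 1 array, and on the values as deposited it was -0.17 (0.275).

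**Figure D5:**
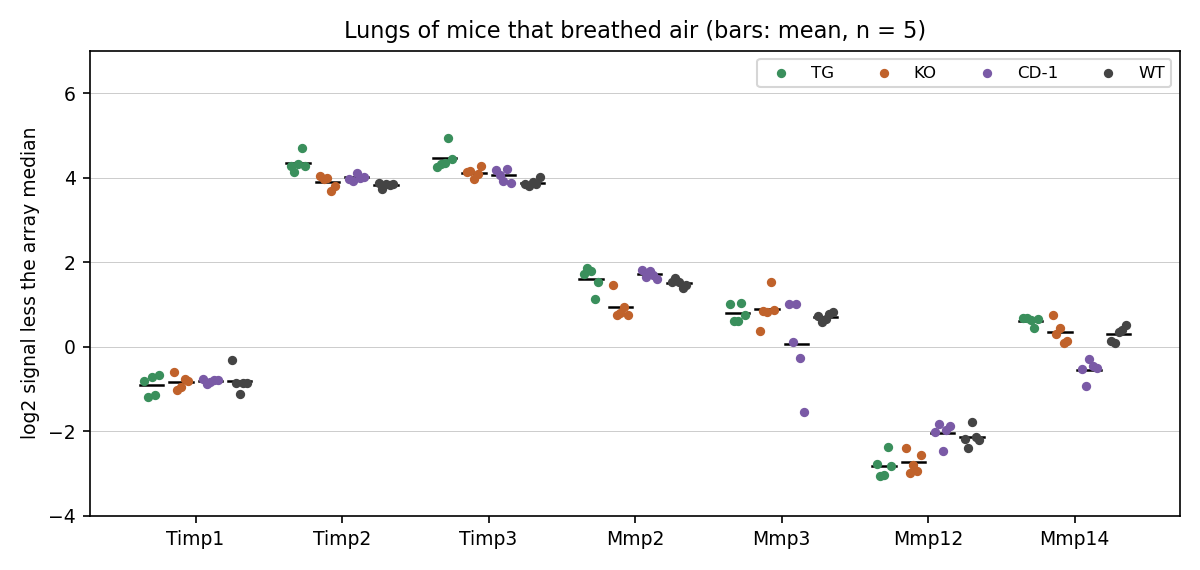
Log2 signal less the array median (vertical axis) of 7 genes in lungs of TG, KO, CD-1 and WT mice that breathed air. Points are arrays and bars the mean of 5. Timp1 means lie within 0.11 of each other on this scale, though not as deposited, where TG and KO were lower than WT. Mmp12 is lower in TG and KO than in WT, Mmp14 lower in CD-1, and Mmp2 lower in KO.

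The genes whose 12 changes from air (4 strains, 3 doses) lay nearest to those of each member were found by the mean absolute difference over the 12 changes. For Timp1 these were Saa3, an acute phase protein (0.26), Ccl12, a monocyte chemokine (0.26), and the interferon-induced genes Ifit3 (0.29), Ddx60 (0.30) and Rsad2 (0.30). The median distance from Timp1 over all genes was 0.93. With few genes called outside WT, this distance depends largely on the size of the WT change. Timp1 was among the genes with the highest WT changes, so a large median follows from that. It does not show a particular link between Timp1 and the genes named. In WT lungs Ccl12 changed by 2.78, 2.76 and 2.71 and Ddx60 by 2.73, 2.45 and 2.32 at 10, 40 and 120 ppm. For Mmp3 the nearest were Spon2, a secreted matrix protein (0.18), and Gadd45g, a stress-induced gene (0.19), beside a median of 0.46. Gadd45g changed by 0.90, 1.33 and 1.13 in WT at the same doses. For Mmp14 they were Rab20 and Nek6 (0.08 each, median 0.21), for Mmp12 Apol7a (0.08) and Mov10 (0.09, median 0.29), and for Timp2 Smad4 and Ncoa1 (0.03 each, median 0.14).

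The other genes of the pathway were counted from 6 lists in WT lungs. In TG, KO and CD-1 at 120 ppm no list member was called, beside 0.0701%, 0% and 0.0175% of all genes. With so few calls over all genes, that absence says nothing particular about the lists. The lists were drawn up with earlier results of these arrays known. Over all tested genes, 7.67%, 13.7% and 14.3% were called higher and 4.9%, 12.4% and 9.65% lower at 10, 40 and 120 ppm, and the counts below, markers included, are to be read beside those shares. Of 19 other matrix metalloproteinases listed, 14 had a probe set and 5 passed the signal filter. Of the 5, 1, 2 and 2 rose at 10, 40 and 120 ppm and none fell. Mmp8, the neutrophil collagenase, rose by 0.94 ± 0.15, 0.50 ± 0.15 and 0.53 ± 0.15. Mmp19 rose by 0.67 ± 0.24 at 40 ppm and Mmp23 by 0.25 ± 0.08 at 120 ppm. The list's median change was 0.14, 0.13 and 0.25.

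Among 16 tested ADAM and ADAMTS proteases, relatives of the MMPs that TIMP3 also inhibits, none was called at 10 ppm, 4 rose and 3 fell at 40 ppm, and 4 rose and 3 fell at 120 ppm, beside 13.7% higher and 12.4% lower at 40 ppm and 14.3% and 9.65% at 120 ppm over all genes. Their median change was 0.05, 0.16 and 0.14. Adamts15 rose by 1.09 ± 0.17 at 40 ppm and 0.96 ± 0.17 at 120 ppm, and Adam15 by 0.32 and 0.33. Adamts5, an aggrecan-cleaving protease, fell by 0.57 and 0.58.

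Of 13 other matrix-degrading proteases and inhibitors, 2, 4 and 3 rose and 0, 1 and 1 fell, beside 7.67%, 13.7% and 14.3% of all genes higher and 4.9%, 12.4% and 9.65% lower, with median changes of -0.02, 0.09 and 0.04. Serpina3n, an acute phase inhibitor of serine proteases, rose by 1.28 ± 0.16, 1.90 ± 0.16 and 1.92 ± 0.16. Ctsk, the collagen-degrading cathepsin K, rose by 0.68 at 10 ppm and 0.69 at 40 ppm. Plaur, the receptor of urokinase, rose by 0.62 and 0.46 and Plat, tissue plasminogen activator, by 0.72 and 0.44 at 40 and 120 ppm. Of 12 binding partners, activators and surface regulators, 0, 2 and 1 rose and 1, 1 and 3 fell (medians -0.04, 0.05 and -0.01), counts near those same shares at 40 ppm. Bsg, a surface protein that induces MMPs, fell by 0.21, 0.22 and 0.25, and Pcsk5, a proprotein convertase, rose by 0.32 and 0.29 at 40 and 120 ppm.

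Of 19 cytokines, receptors and transcription factors known to act upstream of Timp1 and Mmp3, 6, 10 and 7 rose and 0, 0 and 2 fell at 10, 40 and 120 ppm (medians 0.15, 0.23 and 0.20), beside 7.67%, 13.7% and 14.3% of all genes higher and 4.9%, 12.4% and 9.65% lower. Osmr, the oncostatin M receptor, rose by 0.52 ± 0.07, 0.35 ± 0.07 and 0.38 ± 0.07. Il6 rose by 1.84 ± 0.40 at 10 ppm, Lif by 0.56 ± 0.15 at 10 ppm and 0.75 ± 0.15 at 120 ppm, and the immediate early genes Egr1 and Junb by 1.61 ± 0.27 and 0.85 ± 0.17 at 40 ppm. Runx1 fell by 0.58 at 120 ppm. Of 15 matrix substrates, 4, 7 and 8 rose and 0, 0 and 1 fell (medians 0.07, 0.23 and 0.34), beside the same shares. Vcan, a proteoglycan cut by several metalloproteinases, rose by 1.42 ± 0.18, 1.75 ± 0.18 and 1.62 ± 0.18, and Tnc, tenascin C, by 1.10 ± 0.32 at 10 ppm and 1.42 ± 0.32 at 40 ppm.

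Markers of some lung cell types changed in WT too, while for other types few or none were called. In bulk lung, fewer cells of a type and less RNA per cell cannot be told apart. Of 5 smooth muscle markers, 2, 3 and 4 rose and none fell at 10, 40 and 120 ppm, and their summed log2 level was 11.85 to 12.22 at 120 ppm, against 10.91 to 11.55 in air. Acta2, smooth muscle actin, rose by 0.54, 0.77 and 0.99. Of 5 club cell markers, none rose and 3, 5 and 4 fell, with sums of 14.80 to 15.01 at 120 ppm, against 15.29 to 15.35 in air. Of 5 ciliated cell markers, 1, 2 and 3 fell (sums 11.20 to 11.53 at 120 ppm, against 11.82 to 12.00 in air).

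Of 6 alveolar macrophage markers, 2, 4 and 4 fell and none rose, and the sums overlapped, at 12.32 to 12.54 at 120 ppm, against 12.46 to 12.58 in air. Siglecf, a surface receptor of alveolar macrophages, fell by 0.80, 0.88 and 1.02. Of 7 neutrophil markers none was called at any dose, and the sums were 10.34 to 10.93 at 120 ppm, against 10.72 to 11.30 in air. Of 7 fibroblast markers 0, 0 and 1 rose and 1, 1 and 1 fell (sums 12.46 to 12.69, against 12.59 to 12.89). Of 8 monocyte and interstitial macrophage markers, 1, 1 and 0 rose and 1, 3 and 2 fell (sums 10.17 to 10.44, against 10.24 to 10.42). No mesothelial marker was called, and all cartilage markers lay below the signal filter. The part of these markers in the changes of Timp1, Mmp3, Mmp14 and Mmp12 was not tested.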

How the data were processed

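RNA of whole lungs was hybridised to Affymetrix 3' arrays with biotin label. The authors deposited log2 signals for 45037 probe sets on 80 arrays, and the submitters' processing notes name RMA and Partek. Their versions are unknown, as is whether all strains were normalized together: not given in the sources used here. Of the probe sets, 28898 had a single gene symbol in GEO's platform annotation, 551 had several and 15588 were not in it. Of the single-symbol ones, 28689 matched RefSeq (GRCm38.p6) by gene ID. Values ran from 1.88 to 13.9.

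Values were tested as deposited with limma 3.58.1 (R 4.3.3): each strain alone (20 arrays, 16 residual degrees of freedom), 2 strains together for response differences (40 arrays, 32 degrees of freedom), and the 20 air arrays for strain differences, after subtracting each array's median over the tested genes. P values were adjusted by Benjamini-Hochberg over 11406 genes. Pearson correlations within groups ran from 0.978 to 0.9968 and across groups reached 0.9965. No labelled scan or extraction batch was available. The scripts were tested on simulated data.

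Members, gene lists, motifs and tests were chosen with earlier results of these data known. The text names all 8 members, Cyp2f2, in each list and comparison up to 4 genes with the lowest p among those that passed, the 5 genes nearest in pattern to Timp1, and the 2 nearest to Mmp3, Mmp14, Mmp12 and Timp2. Alternatives were quantile normalization, array medians subtracted or not, other signal filters, the mean over probe sets, array weights, 1 fit of all arrays, a replicate block and leaving out each array. Other probe sets of Timp2, Timp3 and Mmp14 were added after the data were seen. Same-numbered arrays of a strain did not deviate together on average (mean correlation of deviations: TG 0.00819, KO 0.0506, CD-1 0.0111, WT -0.00118). Such means cannot exclude that arrays of the same number were handled together. A replicate block was used only as an alternative.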

Additional observations from a re-analysis of the deposited data

Results flagged for a closer look

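In 10 of 112 sets of 5 values (7 genes in each of 16 groups), 1 array stood apart from the other 4 by Dixon's test. Chance gives this in about 1 in 20 sets, but the genes share their arrays, so the sets are not independent. Timp1 read 9.69 in CD-1 at 40 ppm replicate 4, where the others read 6.22 to 6.67, and Mmp12 read 7.09 on the same array, where the others read 4.71 to 5.27. Timp1 read 6.69 in KO at 120 ppm replicate 4 (others 6.05 to 6.14). Timp3 read 11.02 in TG at 120 ppm replicate 2 (others 11.44 to 11.60) and 11.38 in WT at 120 ppm replicate 4 (others 11.13 to 11.20). In TG air replicate 4, the array with the lowest median of all (3.84), Mmp2 read 7.73 (others 8.50 to 8.80) and Mmp14 7.03 (others 7.56 to 7.62). Mmp12 read 4.51 in TG at 10 ppm replicate 5 (others 3.98 to 4.12) and 5.46 in TG at 120 ppm replicate 1 (others 3.55 to 4.04). Mmp14 read 5.89 in CD-1 at 10 ppm replicate 1 (others 6.63 to 6.81).

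Response differences between strains passed limma for Timp1 in every comparison with WT. They were -3.02, -3.36 and -2.54 in TG minus WT at 10, 40 and 120 ppm, -3.01, -3.34 and -2.83 in KO minus WT, and -2.97, -2.62 and -2.63 in CD-1 minus WT. For Mmp3 they passed at -0.97 and -1.18 in TG minus WT at 10 and 40 ppm and at -0.82, -1.19 and -0.94 in KO minus WT. For Mmp14 they passed at 120 ppm, at -0.47 in KO minus WT and -0.85 in CD-1 minus WT. The call in KO minus WT was lost with quantile normalization (limma adjusted p = 0.0626) and with several other alternatives.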

How the results depend on the processing

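Over the 37 member results called, 34 were kept under quantile normalization, 34 with no signal filter, 36 with a filter of 40 arrays, 31 with the mean over probe sets, 36 with array weights and 26 with 1 fit of all 80 arrays. Subtracting the array median kept 25 of the 27 calls it could be run on. Over the other probe sets of Timp2, Timp3 and Mmp14, 8 of 25 tests of a called result kept the call. Timp1 in WT kept its call under each alternative that could be run on it. Timp1, Mmp2, Mmp3 and Mmp12 had 1 probe set each. For these genes the mean over probe sets left the values unchanged, and the choice of probe set could not be checked. The replicate block kept 36: Mmp14 in KO minus WT at 120 ppm was then not called (-0.47, adjusted p = 0.051), and Mmp12 in WT at 40 ppm was (0.67, 0.0435). On values as deposited, 5 genes were called in KO against WT in air and 2 in CD-1 against WT, and these reversed: Mmp14 (-0.32) and Timp2 (-0.30) in KO against WT, Mmp14 (-0.17) and Mmp2 (-0.39) in TG against WT. The mean over probe sets called 2 genes in TG against WT in air. One fit of all arrays called 3 results in KO minus WT, 3 in TG minus WT, 1 in KO against WT in air and 1 between CD-1 doses. Other probe sets reversed Timp2 in TG against WT (-0.44 and -0.12) and TG against KO (-0.27), and Timp3 in KO against WT (-0.27), TG against WT (-0.43) and TG against KO (-0.16 and -0.08). Leaving out 1 array gave 9 to 11 calls for WT against air, 5 to 9 for KO minus WT, 5 to 5 for TG minus WT, 3 to 5 for CD-1 minus WT, 3 to 4 for TG against WT in air, 2 to 4 for TG against KO, 2 to 2 for KO against WT and 1 to 2 for CD-1 against WT, where Mmp3 was added without replicate 1 or 3 of CD-1 in air. Timp3 in TG against KO in air was not called without replicate 3 of KO in air (0.0628). On the values as deposited, Timp1 was also called in TG against WT (-0.59) and KO against WT (-0.40) in air. Where an alternative changed a call, the cause was not tested. Mmp12, above the filter level on 55 of 80 arrays, is the member that signal over background limits most.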
